A study of Homo sapiens with 24 samples.

Results

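The 6 arrays described here come from MM1R cells, 3 transfected with a synthetic mir-150-5p mimetic and 3 mock transfected, out of 24 Illumina HumanHT-12 arrays of the study. They were chosen by their titles alone. MM1R is a human multiple myeloma line resistant to glucocorticoids, a subclone that arose from the sensitive line MM1S under long exposure to dexamethasone (Dex). The study describes it as lacking protein of the glucocorticoid receptor GRα. The cells were electroporated with 150 nM mimetic or with a mock control whose content the sources used here do not give, and total RNA was taken 72 h later from 3 independent experiments per treatment. No drug was given to either group, and both groups carry the receptor defect of the line. The other arrays used for comparison are 3 untreated MM1R arrays, 3 MM1R arrays after 72 h of 1 µM Dex, and 6 MM1S arrays of the same transfection, mimetic or mock. For the receptor gene, 3 untreated MM1S arrays and 3 MM1S arrays after 72 h of 1 µM Dex were read as well. The question of the comparison was which messenger RNAs respond to mir-150-5p in cells without the receptor.

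A mature microRNA is loaded into an Argonaute protein and pairs through its seed with sites in messenger RNAs, which are then translated less and degraded faster. In lymphocytes miR-150 is known for lowering MYB, a transcription factor of immature blood cells, and MYB is the target described best. A second pathway recurs in the values below. When amino acids run short or unfolded proteins accumulate, phosphorylation of the initiation factor eIF2α favours translation of ATF4, and ATF4 with partners such as CEBPB and CEBPG raises genes for amino acid synthesis, amino acid uptake and tRNA charging, together with DDIT3, TRIB3 and CHAC1.

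Values are log2 intensities after quantile normalization by the authors, so each one is relative to the other probes of the same array. With a detection p-value under 0.05 on 3 or more of the 6 arrays, 19592 probes of 10946 named genes were kept. Called genes are those with an adjusted p under 0.05 (limma, Benjamini-Hochberg) and a fold change over 2 in some probe. The arrays had 19233 to 20920 detected probes, and with 3 arrays a side the number of arrays limits the precision. Of 19 plasma cell genes 18 were detected on all 6 arrays, among them IRF4, PRDM1, XBP1, SDC1 and TNFRSF17, and CD27 was not. Of 7 T cell markers on the array 2 were detected in at least 3 arrays (CD2 and LCK, with CD3D, CD3E and CD3G at background), and 4 of 8 monocyte and granulocyte, 3 of 6 erythroid and platelet, 2 of 6 NK, 1 of 8 stromal, 1 of 5 epithelial and 1 of 5 mature B cell markers. The summed linear signal of the T cell markers was 910 to 929 in mimetic and 894 to 931 in mock arrays, that of the monocyte and granulocyte markers 1230 to 1380 and 1270 to 1450, and that of the erythroid and platelet markers 1750 to 1960 and 1550 to 1680, and their part in the results was not tested. A probe of NR3C1, the receptor gene, was detected on 0 of the 6 MM1R arrays (6.77 to 6.97) and on 12 of 12 MM1S arrays (7.70 to 8.07), while the other 2 NR3C1 probes did not separate the lines. Those 12 were the untreated, Dex-treated, mimetic and mock arrays of MM1S. No annotated probe measures mir-150-5p, so the level of the mimetic on each array is not known here. Less RNA per cell and fewer responding cells cannot be told apart in such bulk samples.

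No gene was called between mimetic and mock arrays in MM1R cells. Of 10946 genes 0 (0%) passed, the lowest adjusted p was 0.999 (limma), and 322 probes had an unadjusted p under 0.05. The widest difference of means was -0.68 on the log2 scale, that of HSPA1B. Over all genes the median difference was 0.016, and 6181 genes lay above 0. The 3 mimetic values all exceeded the 3 mock values in 393 genes (3.59%) and all fell short of them in 214 genes (1.96%), and the widest such gaps were 0.20 (SNN) and -0.16 (PAQR5, detected on the 3 mock arrays and on 0 mimetic arrays, so that it passed the filter through mock alone). No gene had a gap over 0.5 between the treatments.

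The targets of miR-150 known from the literature did not move together. Of 16 listed targets 14 had a probe and 11 were tested, and none was called. Their median difference was -0.053, beside 0.016 over all genes tested, with 4 above 0 and 7 below. MYB read 8.96, 9.29 and 8.95 on mimetic arrays 1 to 3 and 9.40, 9.16 and 9.65 on mock arrays 1 to 3. Mimetic array 2 lay above mock array 2, so the groups overlapped, and the difference was -0.34 ± 0.15 (SE; unadjusted p = 0.0467, adjusted p = 0.999, limma). Untreated MM1R arrays read higher, at 9.81, 9.89 and 9.70.

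CXCR4, the chemokine receptor that holds plasma cells in the marrow, was the only listed target whose treatments did not overlap. It read 8.74, 8.77 and 8.71 with mimetic and 8.96, 8.90 and 8.98 with mock. All mimetic values lay below all mock values, by -0.12 at the nearest, and the difference was -0.20 ± 0.10 (adjusted p = 0.999, limma). A second, dimmer CXCR4 probe differed by -0.092 with overlapping groups. The remaining 9 had overlapping treatments. ELK1, a transcription factor of the MAP kinase path, differed by 0.14 ± 0.16, FOXP1, a forkhead repressor of B cells, by 0.14 ± 0.085, EP300, a histone acetyltransferase, by -0.14 ± 0.20, and CBL, a ubiquitin ligase, by -0.053 ± 0.12. EGR2 was on the array but not over background.

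No gene of the machinery that microRNAs use was called either. Of 19 tested genes of microRNA processing and silencing 0 were called, and their median difference was -0.031. AGO2, the slicing Argonaute, read 9.40, 9.98 and 8.93 with mimetic and 9.77, 9.45 and 9.24 with mock, so that mimetic array 2 was highest and mimetic array 3 lowest of the 6. DICER1, which cuts the precursors, differed by -0.15 ± 0.11, and PRKRA, a partner of DICER1, by -0.19 ± 0.11 with its 3 mimetic values below the 3 mock values. TARBP2, another partner of DICER1, lay the other way, with its 3 mimetic values above the 3 mock values in both probes and a difference of 0.14 ± 0.11. Among 182 tested genes that the study predicted as mir-150-5p targets and selected for a Dex response in MM1S, 0 were called, the median difference was 0.01, and 96 lay above 0 and 86 below. That list was chosen on MM1S arrays of this series and is no independent evidence.

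**Figure D1:**
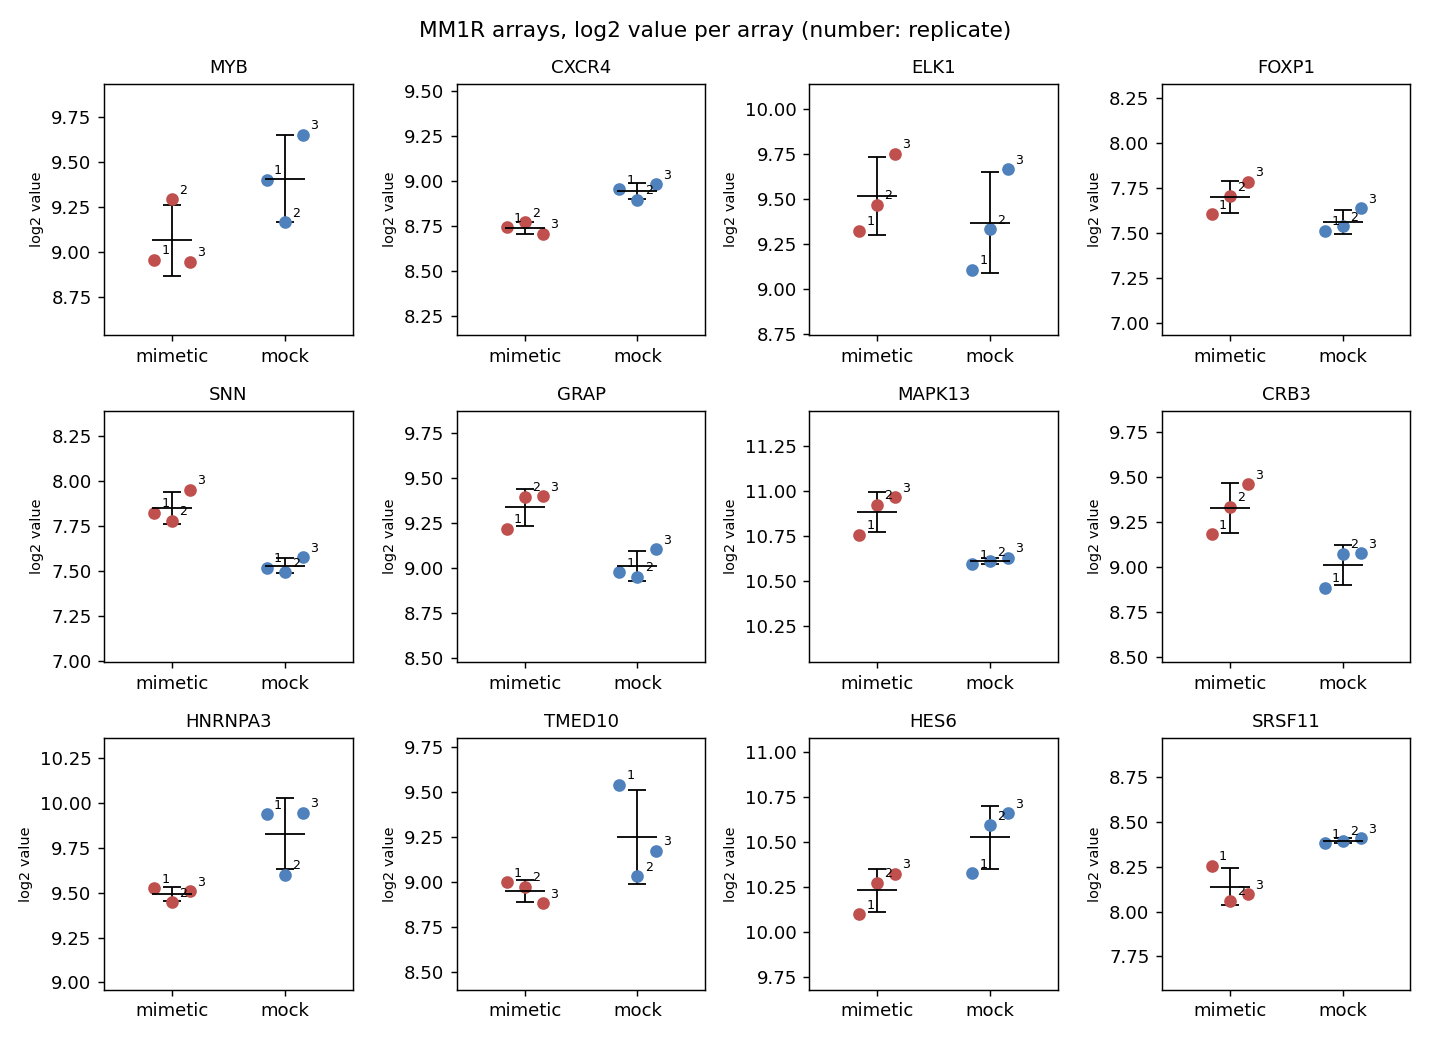
Log2 value on each MM1R array (points, numbered by replicate) with the mean and SD of the 3 mimetic (red) and 3 mock (blue) arrays, for 4 reported mir-150-5p targets and 8 genes whose treatments did not overlap. Each panel spans the same number of log2 units, and the differences of means run from -0.34 (MYB) to 0.33 (GRAP), with CXCR4 at -0.20.

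Genes without overlap were named by their difference, 10 each way, and their unadjusted p ran from 0.00108 to 0.0803 with an adjusted p of 0.999 in each case (limma). SNN, which codes for the small membrane protein stannin, read 7.83, 7.78 and 7.95 with mimetic and 7.52, 7.50 and 7.58 with mock. The mimetic arrays were all above the mock arrays, and the difference was 0.32 ± 0.085. GRAP, an adaptor of the GRB2 family that links receptors to RAS, read 9.22, 9.39 and 9.40 against 8.97, 8.95 and 9.10. Its difference of 0.33 ± 0.12 was the largest of the 10 higher genes, and its second probe differed by 0.05 with overlapping groups.

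MAPK13, a p38 kinase, read 10.76, 10.92 and 10.96 with mimetic and 10.59, 10.61 and 10.63 with mock, a difference of 0.27 ± 0.12. Mock arrays were close together and mimetic arrays spread above them. The others above mock were CRB3, a cell polarity protein, TINF2, of the shelterin complex at telomeres, TEX19, EIF3F, a subunit of translation initiation factor eIF3, WDR45, of autophagy, CRACR2B and WDR83. On the other side HNRNPA3, an RNA-binding protein, read 9.52, 9.45 and 9.51 with mimetic and 9.94, 9.60 and 9.95 with mock. Mimetic arrays agreed closely and mock array 2 lay just above them, for a difference of -0.33 ± 0.13.

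SRSF11, a splicing factor, read 8.26, 8.06 and 8.10 with mimetic against 8.38, 8.39 and 8.41 with mock, a difference of -0.26 ± 0.10. The widest difference below mock, -0.47 ± 0.21 for ANKRD20A1, came mainly from mimetic array 3, at 8.43, 8.38 and 7.51 against 8.72, 8.56 and 8.46, and 3 other ANKRD20A1 probes showed overlapping groups. The remaining genes below mock were TMED10, a cargo receptor between ER and Golgi, HES6, TOPBP1, of the replication checkpoint, ELF3, LRRC37A4P, and PAQR5 and LDLRAD4-AS1, which were near background and detected on all 3 mock arrays and on 0 mimetic arrays. Sizes ran from 0.237 to 0.473 over the 20 genes, well inside a 2-fold change.

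The arrays did not group by treatment. The SD over kept probes of the log2 difference between 2 arrays was 0.148 to 0.268 within a treatment and 0.13 to 0.293 between treatments. Mimetic array 1 lay closest to mock arrays 1 and 2 (SD 0.13 and 0.135), and mock array 3 closest to mimetic array 2 (SD 0.131). These distances give 2 array groups, mimetic arrays 2 and 3 with mock array 3 on one side, and mimetic array 1 with mock arrays 1 and 2 on the other. Within the array groups the SD was 0.13 to 0.21 and between them 0.227 to 0.293. The first principal component, with 58.2% of the variance, placed the first group at 12, 18.6 and 14.6 and the second at -13.9, -16.2 and -15.2, and the second component, with 21.6%, set mimetic array 3 (15.9) apart from mimetic array 2 (-11.2) and mock array 3 (-7.95). Replicate numbers followed the array groups only in part. In both treatments number 3 was in the first group and number 1 in the second, but number 2 was split.

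**Figure D2:**
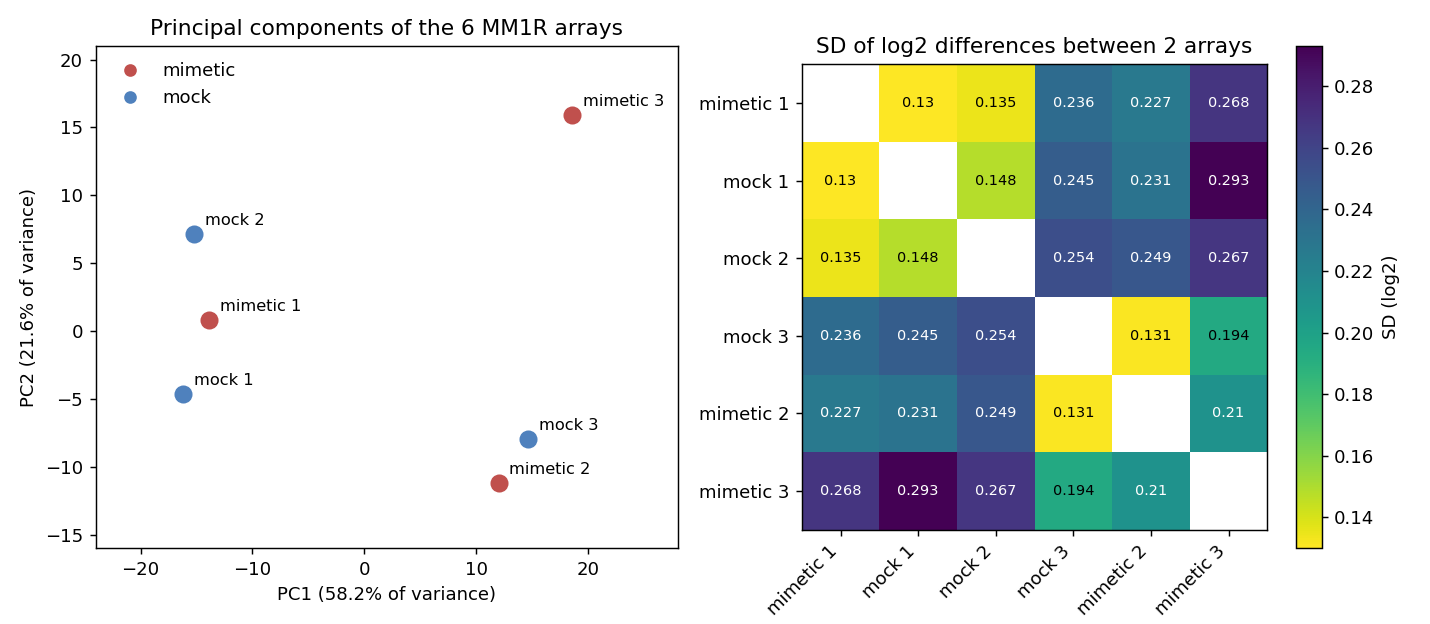
Left, the 6 MM1R arrays on the first 2 principal components (58.2% and 21.6% of the variance), mimetic in red and mock in blue. Right, the SD over kept probes of the log2 difference between each pair of arrays: mimetic 1 sits with mock 1 and mock 2, and mock 3 sits with mimetic 2, and more loosely with mimetic 3.

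Because this split was read from the same values, what follows describes it and tests nothing. A gene was counted as set apart if the lowest of the 3 values on the higher side exceeded the highest of the 3 on the lower side, and this distance is called the array gap. By this count 2429 genes (22.2%) were higher in mimetic 2, mimetic 3 and mock 3 and 1858 genes (17%) were lower there. The gap exceeded 0.5 in 27 genes of the first kind and 94 of the second. Before normalization the median log2 intensity over kept probes was 8.01, 7.99 and 8.24 on mimetic 2, mimetic 3 and mock 3 and 7.9, 7.92 and 7.74 on mimetic 1, mock 1 and mock 2, so the brighter arrays form the first group. The part of brightness in the array groups was not tested. With arrays centred on their median in place of quantile normalization the split became 4376 genes higher (40%) and 720 lower (6.58%), against which every count after centring is to be read, and of the 1858 lower genes 716 kept their gap, 1127 lost it and 15 turned. All 15 genes with the widest gap each way kept its direction under that centring. They were picked for wide gaps, so a reversal was unlikely from the start and the count says little of other genes.

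The genes higher in mimetic 2, mimetic 3 and mock 3 were led by FOS, the immediate early part of the AP-1 factor. It read 7.18, 8.56 and 8.41 on mimetic arrays 1 to 3 and 7.04, 7.11 and 8.58 on mock arrays 1 to 3, an array gap of 1.23. FOS was at or near background in the other 3 arrays (detected on 4 of 6) and in untreated MM1R cells, at 7.32, 7.02 and 7.30. NLRP7, of the NOD-like receptor family, read 11.44, 12.24 and 12.21 and 11.35, 11.36 and 12.21, a gap of 0.77, and all 3 of its probes split the same way. PSAT1, the aminotransferase of serine synthesis, read 10.24, 11.40 and 11.53 and 10.39, 10.48 and 11.21. Its gap was 0.73, and untreated arrays read 11.34, 10.74 and 11.13, above the lower array group and reaching into the higher one.

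Several glucocorticoid-inducible genes were on that side, in a line described as lacking the receptor and without added steroid. DUSP1, a phosphatase of MAP kinases, read 8.72, 9.54 and 9.45 with mimetic and 8.58, 8.48 and 9.57 with mock. TSC22D3, which codes for the glucocorticoid-induced leucine zipper GILZ, read 10.11, 11.33 and 11.39 and 10.34, 10.24 and 10.99, with a gap of 0.65 and the same split in its other 2 probes. KLF9, a Krüppel-like repressor, had a gap of 0.59. In untreated MM1R cells TSC22D3 read 11.35, 11.09 and 11.06 and after Dex 11.46, 11.35 and 10.91, so the higher transfected arrays lay at the level of the line without transfection. Of 19 glucocorticoid receptor targets tested 8 (42.1%) were higher in the first array group and 0 lower, beside 22.2% and 17% of all genes. Among these were DDIT4 (gap 0.32), FBXO32 (0.34) and FKBP5 (0.20), and, with narrow gaps, TXNIP (0.047) and BMF (0.012). After median centring 11 of the 19 (57.9%) were higher and 0 lower, beside 40% and 6.58% of all genes. The median mimetic difference of the 19 genes was 0.015. Others among the 15 widest were PLAC8, FRAT2, POLR3GL, ARHGAP15, ATP6V1D, a proton pump subunit, CYP26A1, which degrades retinoic acid, RGS1, which ends G protein signals, LRATD2 and MTHFD2.

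CLOCK, of the circadian activator pair, had the widest gap on the lower side. Its brighter probe read 10.13, 8.68 and 8.72 with mimetic and 10.15, 9.93 and 8.44 with mock, a gap of -1.21, whereas a second CLOCK probe did not separate the arrays, so the value is that of a single probe. DHCR7, the last enzyme of cholesterol synthesis, read 10.21, 9.19 and 9.40 and 10.14, 10.22 and 9.29, and both of its probes split. MAGEC3, a cancer testis gene, read 9.48, 8.54 and 8.39 and 9.55, 9.49 and 8.51 and all 3 probes split. The others were LOC100190986, C21orf58, NKTR, BLZF1, STRIP2, NPIPB5, of a repeated gene family whose copies one probe may not tell apart, RHBDL2, CRCP (1 clear probe of 3) and 4 small nucleolar RNA genes.

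**Figure D3:**
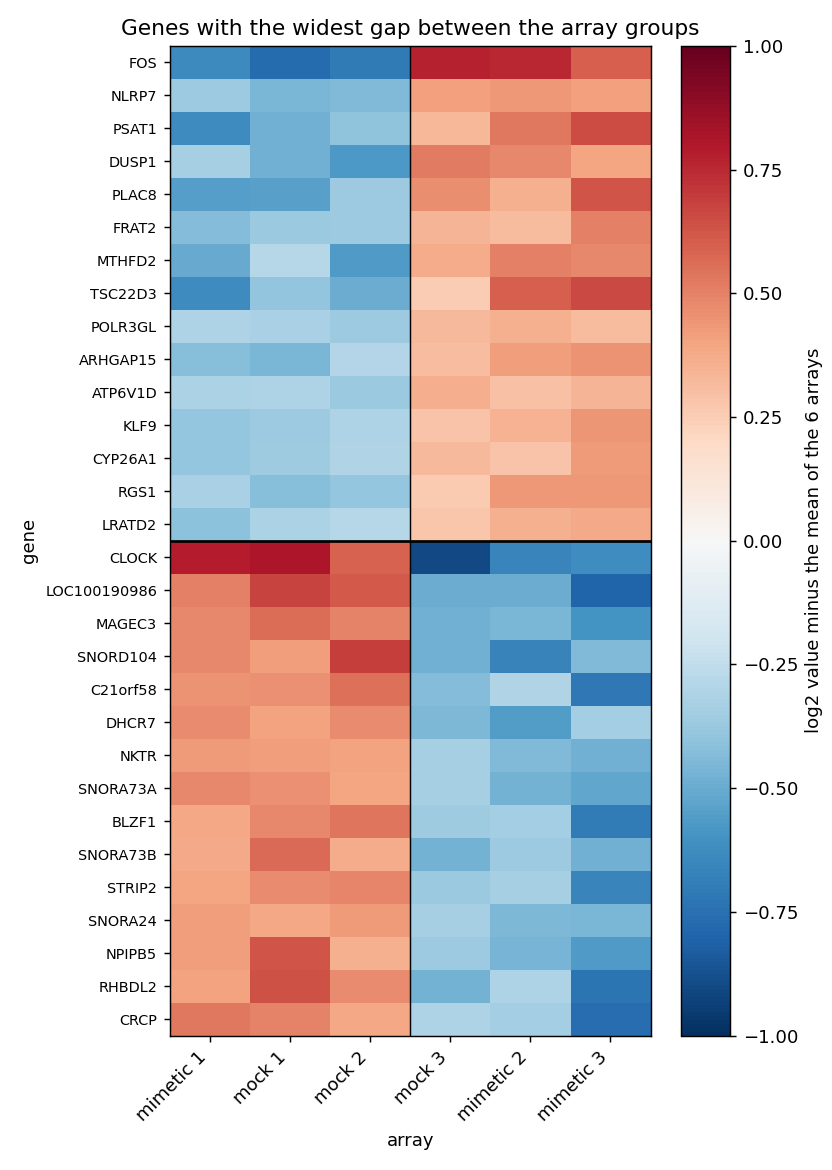
Log2 value minus the mean of the 6 arrays (colour) for the 15 genes with the widest gap each way, in rows, with the arrays in columns ordered by array group. Mimetic 1 has the colours of mock 1 and mock 2, and mock 3 those of mimetic 2 and mimetic 3; gaps run up to 1.23 (FOS) and -1.21 (CLOCK).

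Small nucleolar RNA genes lay mostly on the lower side. These RNAs guide methylation or pseudouridylation of ribosomal RNA and mostly lie in introns of host genes. They were singled out after their values were seen, by the RefSeq gene type. The labelling started from oligo(dT) primers, and whether such probes read the mature RNA or a longer transcript was not tested. Of 123 tested, 83 (67.5%) were lower in mimetic 2, mimetic 3 and mock 3 and 1 (0.813%), SNORD43, was higher, and after median centring 57 and 1. Gaps of the lower ones were as small as -0.001 (SNORA32). Some, such as SNORD67 and SNORD88B, were detected on only 3 of the 6 arrays. Such genes could pass the filter through the array group where they were higher. SNORD104 read 10.57, 9.42 and 9.65 with mimetic and 10.51, 10.78 and 9.61 with mock, a gap of -0.86. SNORA73A read 8.87, 7.92 and 7.87 and 8.85, 8.79 and 8.05 (gap -0.73), and SNORA24 read 9.92, 9.05 and 9.04 and 9.89, 9.93 and 9.17 (gap -0.72). In each of these genes mimetic 1 read like mock 1 and mock 2, and mock 3 like mimetic 2 and 3. Untreated MM1R arrays read 9.44, 9.24 and 9.32 for SNORD104, at the lower level, and 8.61, 8.52 and 8.69 for SNORA73A, nearer the upper one. Their median mimetic difference was -0.10, and none was called. In comparison, of 10287 protein-coding genes 22.8% were higher and 16.1% lower.

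Genes of the amino acid response, of serine and asparagine synthesis and of tRNA charging lay mostly on the higher side, and amino acid transporters were near the share of all genes. Of 15 tested members of that list 10 were higher and 2 lower in the first array group, and of 16 genes of serine, one-carbon and asparagine synthesis 11 were higher and 1 lower. For aminoacyl-tRNA synthetases the counts were 9 and 2 of 15 and for amino acid transporters 3 and 1 of 11. The higher shares were thus 66.7%, 68.8%, 60% and 27.3%, beside 22.2% of all genes. After median centring the counts became 12 and 0, 13 and 0, 12 and 0, and 5 and 0, or 80%, 81.2%, 80% and 45.5% higher beside 40% of all genes. The list medians of the mimetic difference were 0.27, 0.16, 0.11 and 0.027, with 0 calls in each list.

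ASNS, asparagine synthetase, read 11.19, 12.19 and 12.25 on mimetic arrays 1 to 3 and 11.35, 11.19 and 11.85 on mock arrays 1 to 3. The array gap was 0.50 and its second probe split too, and the mimetic difference of 0.42 ± 0.26 (adjusted p = 0.999, limma) mixed the array groups. CHAC1, which breaks down glutathione, read 7.33, 8.38 and 8.86 and 7.53, 7.49 and 7.94. Mock 3, mimetic 2 and mimetic 3 stood above the other arrays in that order, and untreated cells lay at 7.26, 7.08 and 7.31. ATF3, a repressor of the same path, read 8.89, 9.82 and 9.93 and 9.05, 9.01 and 9.37. ATF4 itself read 13.36, 13.93 and 13.87 and 13.35, 13.29 and 13.90, a gap of 0.51, with 1 further probe split the same way and another, dim probe the opposite way (-0.28). PHGDH, the first enzyme of serine synthesis, read 11.32, 12.05 and 12.20 and 11.46, 11.41 and 11.81, and SHMT2, the mitochondrial enzyme that takes serine into folate metabolism, 11.79, 12.23 and 12.33 and 11.77, 11.72 and 12.08.

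Some promoters of these genes hold the sequence element through which the pathway is known to act. The letters TGATGNAA, the amino acid response element that ATF4 and CEBP proteins bind, were looked for on both strands of the 250 bases before each RefSeq gene start (GRCh38.p14). They stood in 1104 of 35116 promoters (3.14%) and in 215 of 8805 tested genes with a promoter sequence (2.44%). Of the amino acid response list 4 of 14 held them (ATF3, CEBPG, CHAC1 and JDP2), of the serine and asparagine list 3 of 12 (ASNS, GOT1 and MTHFD1L), and of the tRNA synthetases 3 of 12 (AARS1, GARS1 and IARS1). Of the transporters 1 of 10 did (SLC1A5). JDP2, IARS1 and SLC1A5 had no array gap, and the others named here were higher in the first array group. The lists contain genes known for such elements, and a match of letters is a description, not a bound site. Among tested genes with an array gap the share was 3.07% on the higher and 2.08% on the lower side. These 3 promoters are shown because their genes have wide gaps, with the element in capitals, at chr7:97872409-97872658, minus strand, for ASNS (element from position -68), chr1:212565157-212565406, plus strand, for ATF3 (from -191) and chr15:40953221-40953470, plus strand, for CHAC1 (from -209, on the opposite strand). RefSeq lists 2 starts each for ASNS and ATF3, and for each gene the first start found with the element is given.
ASNS: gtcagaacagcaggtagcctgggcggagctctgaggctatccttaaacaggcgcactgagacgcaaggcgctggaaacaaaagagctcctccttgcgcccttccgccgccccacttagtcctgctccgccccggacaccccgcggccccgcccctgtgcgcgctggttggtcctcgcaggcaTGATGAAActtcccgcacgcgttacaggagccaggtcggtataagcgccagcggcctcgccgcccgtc
ATF3: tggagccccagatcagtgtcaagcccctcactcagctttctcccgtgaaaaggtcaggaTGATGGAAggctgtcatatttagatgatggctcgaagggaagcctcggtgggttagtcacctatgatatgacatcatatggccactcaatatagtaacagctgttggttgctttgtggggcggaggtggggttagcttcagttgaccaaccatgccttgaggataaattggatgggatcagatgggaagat
CHAC1: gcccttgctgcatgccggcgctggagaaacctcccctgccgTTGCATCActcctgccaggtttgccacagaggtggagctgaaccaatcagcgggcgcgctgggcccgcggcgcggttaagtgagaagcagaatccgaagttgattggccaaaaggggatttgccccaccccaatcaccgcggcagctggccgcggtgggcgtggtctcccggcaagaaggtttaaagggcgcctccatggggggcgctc

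**Figure D4:**
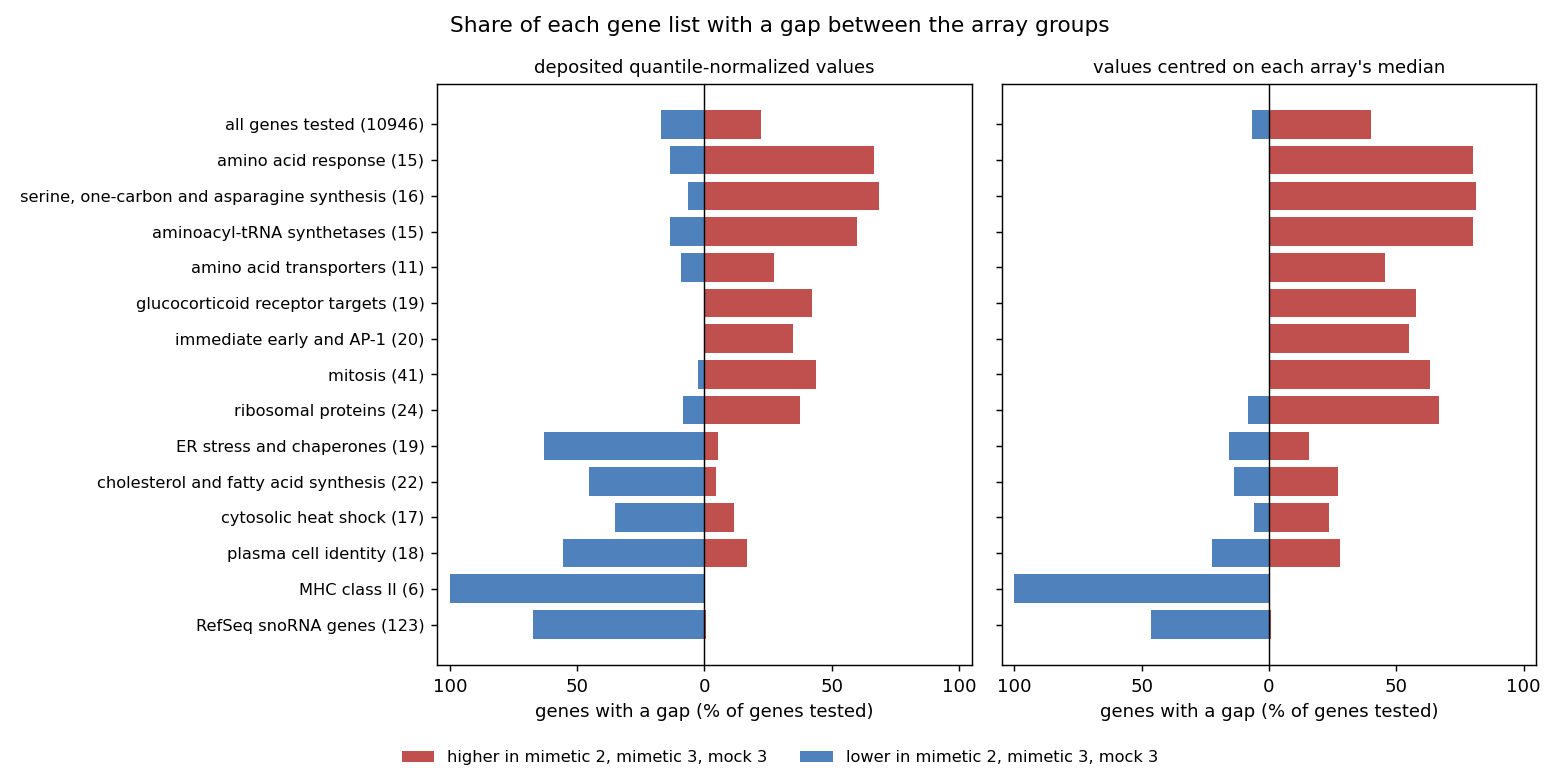
Share of the tested genes of each list (number in brackets) with an array gap, higher (red, to the right) or lower (blue, to the left) in mimetic 2, mimetic 3 and mock 3, from the deposited values and after median centring. Among all genes the shares are 22.2% and 17% in the left panel and 40% and 6.58% in the right panel. Relative to these, the first 3 amino acid lists hold more higher genes in both panels, and MHC class II, snoRNA and ER stress genes more lower genes in both.

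Mimetic array 3 stood furthest out. It held the highest of the 6 values for 2690 genes (24.6%), for 10 of the 15 amino acid response genes and for 9 of the 16 genes of serine, one-carbon and asparagine synthesis. It lay over 0.5 log2 units above the other 5 arrays for 4 genes and below them for 57, whereas mimetic array 2 did so for 1 gene (CCNY) and the other arrays for none. DDIT3, the pro-apoptotic factor CHOP, read 8.45, 9.21 and 9.84 with mimetic and 8.51, 8.53 and 8.58 with mock. Mock values were flat, mimetic 1 was level with them, and mimetic 2 and 3 stepped upwards, for a difference of 0.62 ± 0.26 (unadjusted p = 0.036, adjusted p = 0.999, limma). PYCR1, of proline synthesis, read 9.02, 9.37 and 9.98 and 9.20, 9.34 and 9.29, and the other 2 were UBALD2 and YPEL3.

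DDIT4, an inhibitor of mTORC1, read 9.12, 10.27 and 10.64 with mimetic and 9.23, 9.24 and 9.56 with mock, the largest positive difference of all genes at 0.67 ± 0.30 (unadjusted p = 0.0484, adjusted p = 0.999, limma). Mimetic 1 was the lowest of the 6 and mimetic 3 the highest. SESN2, another brake on mTORC1, read 7.74, 8.22 and 8.69 and 7.85, 7.79 and 7.84, with mimetic 2 and 3 above all mock arrays and mimetic 1 below them. HSPA1B, an inducible heat shock protein, ran the opposite way, at 10.65, 9.90 and 9.47 and 10.95, 10.89 and 10.22, a difference of -0.68 ± 0.27 (unadjusted p = 0.0296, limma). Genes lowest in mimetic 3 included CEP350, at 9.60, 9.74 and 8.52 with mimetic and 9.74, 9.40 and 9.42 with mock, ANKRD36B, LRRFIP1, CCBE1, KIF14, a mitotic kinesin, and ASXL2.

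Chaperones of the ER lay lower where the amino acid genes lay higher. Of 19 ER stress and chaperone genes 12 (63.2%) were lower and 1 (5.26%) higher in the first array group, beside 17% and 22.2% of all genes. After median centring 3 (15.8%) were lower and 3 (15.8%) higher, beside 6.58% and 40%, so the list stayed on the lower side relative to all genes while fewer of its members kept a gap. HSPA5, the main ER chaperone BiP, read 10.10, 9.44 and 9.27 with mimetic and 10.00, 10.19 and 9.33 with mock, a gap of -0.56 that was -0.37 after centring. CRELD2 had a gap of -0.43, or -0.12 after centring, and CANX one of -0.36 that was lost. Neither HSPA5 (difference -0.23 ± 0.24) nor the list, with a median of -0.028, separated the treatments. The letters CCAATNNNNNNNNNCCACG, the ER stress response element, stood in 26 of 35116 promoters (0.074%), in 15 of 8805 tested genes (0.17%) and in 7 of the 19 ER stress genes (CALR, CANX, CRELD2, HSP90B1, HSPA5, PDIA6 and XBP1), and in none of the amino acid lists. TGATGNAA was in none of the ER stress promoters. For contrast with the 3 promoters above, those of HSPA5 (chr9:125241344-125241593, minus strand, element from -66) and CRELD2 (chr22:49918384-49918633, plus strand, from -80, opposite strand) are given with the ER stress element in capitals.
HSPA5: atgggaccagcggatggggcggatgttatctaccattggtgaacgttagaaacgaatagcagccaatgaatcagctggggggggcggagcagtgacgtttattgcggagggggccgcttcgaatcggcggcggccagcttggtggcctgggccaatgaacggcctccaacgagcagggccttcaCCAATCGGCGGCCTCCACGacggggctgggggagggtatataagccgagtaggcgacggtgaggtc
CRELD2: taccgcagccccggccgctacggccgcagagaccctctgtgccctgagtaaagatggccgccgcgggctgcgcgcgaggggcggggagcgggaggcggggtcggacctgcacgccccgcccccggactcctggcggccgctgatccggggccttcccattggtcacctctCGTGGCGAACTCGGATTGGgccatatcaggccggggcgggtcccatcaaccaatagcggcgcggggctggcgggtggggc

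MHC class II genes, which present antigen to helper T cells, were lower in the first array group without exception. All 6 tested were lower, beside 17% of all genes, and also after median centring, beside 6.58%. HLA-DRA read 12.96, 12.26 and 12.24 with mimetic and 12.87, 12.93 and 12.29 with mock, a gap of -0.58 with its second probe alike. HLA-DPA1 read 10.58, 9.66 and 10.04 and 10.62, 10.67 and 9.70, and CD74, the invariant chain, 13.41, 12.89 and 13.04 and 13.51, 13.42 and 12.89. The chemokine receptor CCR10 (10.22, 9.36 and 9.64 and 10.28, 10.11 and 9.21) and the interferon-induced chemokine CXCL10 followed. Of 12 chemokine and receptor genes 6 (50%) were lower and 0 higher, beside 17% and 22.2% of all genes. After centring 4 (33.3%) were lower and 1 (8.33%) higher, beside 6.58% and 40%. Of 22 genes of cholesterol and fatty acid synthesis 10 (45.5%) were lower and 1 (4.55%) higher, beside 17% and 22.2% of all genes. After centring 3 (13.6%) were lower and 6 (27.3%) higher, beside 6.58% and 40% of all genes, so that the order of the counts turned with the shift of all genes.

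Mitosis genes leaned to the side of the amino acid genes, while DNA replication genes stayed near the share of all genes. Of 37 DNA replication genes 8 (21.6%) were higher and 5 (13.5%) lower, and after centring 15 (40.5%) and 1. Of 41 mitosis genes 18 (43.9%) were higher and 1 lower, and after centring 26 (63.4%) and 0, beside 22.2% of all genes higher before and 40% after centring. BIRC5, survivin, read 9.27, 9.72 and 9.57 and 9.07, 9.14 and 9.73, and AURKA, the Aurora A kinase, 10.01, 10.33 and 10.27 and 10.03, 9.83 and 10.48. Both had mock 3 as their highest array. Among plasma cell genes, 3 were higher (IRF4, MAF and POU2AF1) and 10 lower (55.6%, beside 17% of all genes) of 18, or 5 and 4 after centring (22.2% lower, beside 6.58%). IRF4, the master factor of plasma cells, read 10.85, 11.27 and 11.43 and 10.84, 10.91 and 11.17. Of 24 ribosomal protein genes 9 (37.5%) were higher and 2 lower, and 16 (66.7%) and 2 after centring.

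Set beside arrays that were never transfected, the first array group lay nearer. The SD of the log2 difference from the 3 untreated MM1R arrays was 0.27 to 0.335 for mimetic 2, 0.3 to 0.367 for mimetic 3 and 0.267 to 0.331 for mock 3, against 0.335 to 0.399 for mimetic 1, 0.344 to 0.395 for mock 1 and 0.365 to 0.426 for mock 2. Every one of the 6 was closer to untreated than to Dex-treated MM1R arrays at its nearest. BLZF1 read 11.92, 11.19 and 10.83 with mimetic and 12.01, 12.06 and 11.17 with mock but 9.86, 10.00 and 10.40 in untreated cells. STRIP2 likewise read 9.64, 8.91 and 8.59 and 9.72, 9.74 and 8.88 against 7.91, 7.97 and 8.16. For TXNIP, a regulator of glucose uptake, all 6 transfected arrays (11.48, 11.84 and 11.96; 11.80, 11.60 and 11.91) lay below untreated cells (13.21, 12.88 and 12.95). The untreated arrays belong to another experiment, and experiment and transfection cannot be told apart.

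In MM1S cells, by contrast, mimetic and mock arrays lay far apart for the same amino acid genes except on MM1S mimetic array 3. ASNS read 10.40, 10.56 and 12.66 on MM1S mimetic arrays 1 to 3 and 12.84, 12.97 and 12.81 on MM1S mock arrays. PHGDH read 8.95, 9.09 and 12.47 and 12.43, 12.82 and 12.50. Whether the mimetic effect differed between the lines was tested over 12 arrays, and of 12406 genes 0 (0%) were called, with a lowest adjusted p of 0.301 and 2937 probes at an unadjusted p under 0.05 (limma). MM1S mimetic array 3 lay with the mock arrays for these genes and for some outside the amino acid lists. FKBP5 read 12.91, 13.13 and 9.34 on MM1S mimetic and 9.57, 9.39 and 9.33 on MM1S mock arrays. CCL3 read 11.31, 11.32 and 14.88 and 14.87, 14.89 and 14.93. Without MM1S mimetic array 3, 360 genes (2.90%) were called. This array was left out with its values known, and the call rests on doing so.

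**Figure D5:**
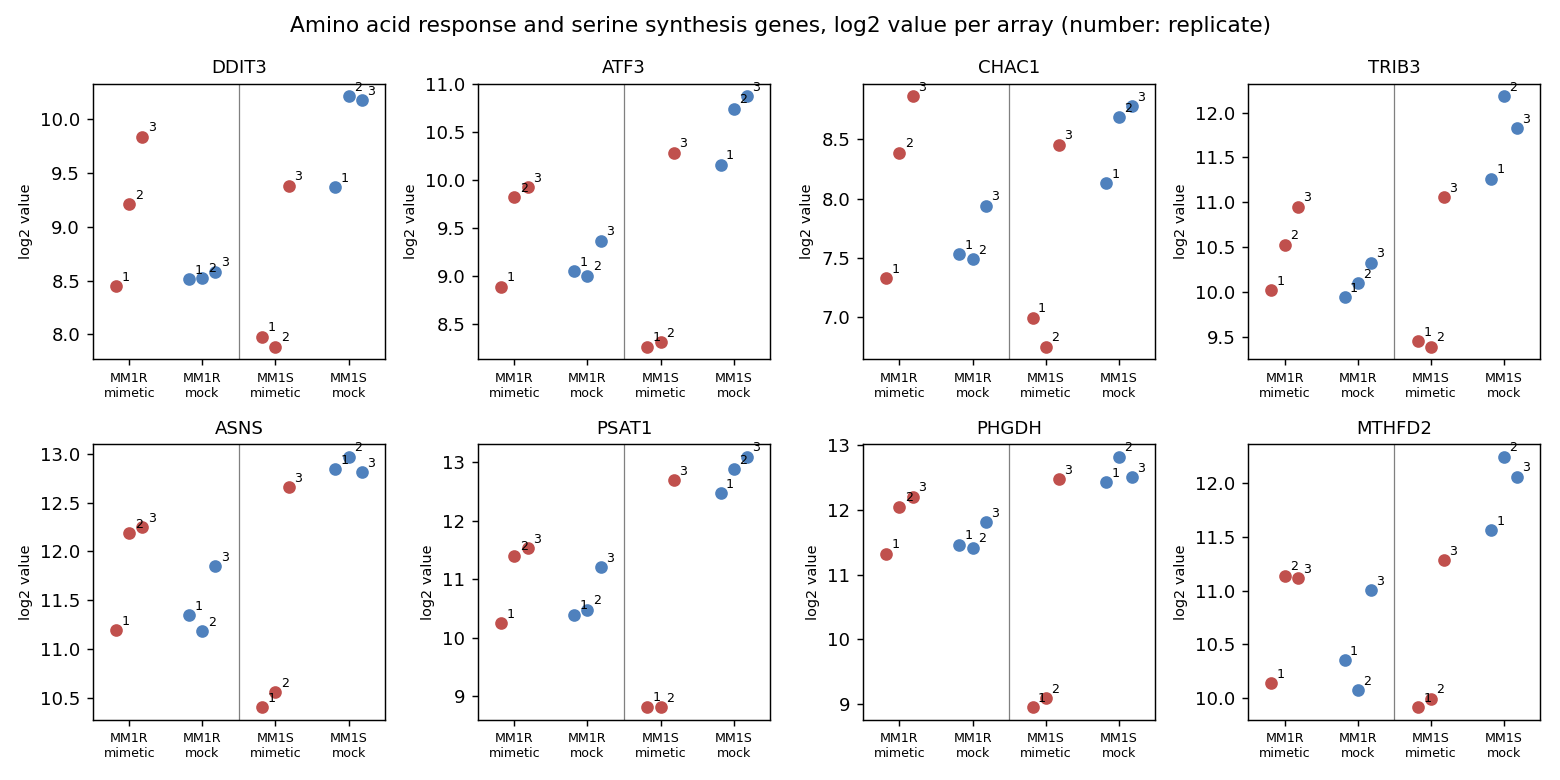
Log2 value on each transfected array (points, numbered by replicate; mimetic red, mock blue) of both lines for 8 amino acid response and serine synthesis genes. In MM1R the high values are mimetic 2 and 3 with mock 3 next in most panels, and in MM1S mimetic 1 and 2 are far below the mock arrays while mimetic 3 is near them.

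In that reduced comparison, and counting each gene by its brightest probe (335 of 12406, 2.7%), the genes of the amino acid lists were among those called. The array left out was seen to stand apart in genes of these lists. The counts and adjusted p-values without it therefore follow from that choice and are no independent evidence. Of 16 amino acid response genes 11 were called, 9 with a more negative effect in MM1S and 2 with a more positive one. Of 16 serine, one-carbon and asparagine genes 9 were called, of 15 tRNA synthetases 8 and of 12 transporters 6, each more negative in MM1S. ASNS differed by -2.81 ± 0.34 (adjusted p = 5.7e-05, limma, against -2.08 and 0.301 with all 12 arrays), PHGDH by -3.86 ± 0.29 (adjusted p = 4.68e-07, against 0.302) and DDIT3 by -2.61 ± 0.39 (adjusted p = 0.000473, against 0.301). Glucocorticoid receptor targets went the opposite way, 8 of 21 called and all 8 more positive in MM1S, with FKBP5, the receptor co-chaperone, at 3.60 ± 0.22 (adjusted p = 7.09e-08, limma, against 0.325). Of 18 cytosolic heat shock genes 5 were called, all more positive in MM1S, among them HSPH1 at 1.81 ± 0.39 (adjusted p = 0.00803, limma, against 0.301).

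The reported miR-150 targets contributed 1 call of 11. CXCR4 read 11.95, 11.80 and 9.26 on MM1S mimetic and 9.19, 9.45 and 9.33 on MM1S mock arrays, a difference between the lines of 2.76 ± 0.17 (adjusted p = 6.77e-08 without MM1S mimetic array 3, 0.307 with it, limma). It thus lay above mock on 2 MM1S arrays and slightly below mock on the MM1R arrays. The mean of MYB was lower with mimetic than with mock in both lines, with overlapping groups in MM1R. The mimetic effect on MYB was not called different between the lines, at -0.49 ± 0.20 (adjusted p = 0.164, limma, against 0.543 with all 12 arrays). No ribosomal protein gene of 24 was called.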

How the data were processed

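RNA of 24 samples was hybridised to Illumina HumanHT-12 arrays, and the 6 MM1R transfection arrays were analysed here. The log2 values used are those the authors deposited after reading with beadarray and quantile normalization (limma 3.14.1 per the labels), 1 value per probe and array, without pooling. A further table deposited by the authors holds, for each array, log2 intensities before normalization with a detection p-value per probe, whose computation is not given in the sources used here. It served for the filter and the alternatives. Of 47224 probes 4 had a missing value, 30106 carried 1 gene symbol, 8 several and 17106 none; only probes with 1 symbol were named.

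Mimetic and mock arrays were fitted with lmFit and eBayes (trend, two-sided) in limma 3.58.1, R 4.3.3, and p-values were adjusted over all 19592 kept probes (23377 for the 12 arrays of both lines). A gene is given by its probe with the highest mean over the 6 arrays. Figures came from matplotlib 3.10.9 (Python 3.11.15). Each array gap is the lowest of the higher 3 values minus the highest of the lower 3. Named were the 10 genes each way with the largest difference and no overlap, the 15 with the widest array gap each way, up to 4 members of each list by p and by range, the reported targets and genes the paper names. Single-array genes and snoRNA genes were added later. The members, lists and rules were chosen with earlier results of these data known. The fits were tested on simulated data with noise drawn independently for each probe and array. Those data held no array groups, so they do not show how the fit performs under such a split. Alternatives were other normalizations, filters, thresholds, arrays in the fit, weights, blocks and each array left out. Sequences are from RefSeq (GRCh38.p14). Matches of the mir-150-5p seed were not analysed here.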

Additional observations from a re-analysis of the deposited data

How the results depend on the processing

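The count of 0 genes between mimetic and mock in MM1R held under every alternative run, with 196 to 1815 probes at an unadjusted p under 0.05 (limma), the most with array weights. The 22 genes followed through the alternatives kept their direction, and their lowest adjusted p was 0.536, with array weights. A gene picked for treatments without overlap cannot change direction when 1 array is left out. For such genes the kept direction is no independent support. The difference between the lines, 0 genes with 12 arrays, became 18 with all 24 arrays in 1 fit, 444 with array weights and 1 with the replicate block. Leaving out 1 array gave 0 to 360, and 360 only without MM1S mimetic replicate 3. The causes were not tested.

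Same-numbered mimetic and mock arrays of MM1R deviated with correlations of 0.602, -0.536 and 0.396, so the numbers were not taken as pairs, and the replicate block left 0 calls between mimetic and mock. Of 4287 genes with an array gap in either direction, the alternatives gave 4285 with quantile normalization here, 5096 with median centring and 5211 without a filter. Median centring moved the arrays' kept genes by -0.147 (mock 2) to 0.182 (mock 3). No slide was given in the sources used here, so the planned slide block was not run, and gaps were not recomputed without single arrays. The planned run on the authors' normalized values is the analysis itself, and quantile normalization of the deposited log2 intensities was added in its place after the data were seen. With 3 arrays a side, a change of the size seen for MYB or CXCR4 was not separable from the spread between arrays.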

Other observations

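Genes that resist cell death showed an array gap too. Of 8 tested anti-apoptotic genes 6 were higher in mimetic 2, mimetic 3 and mock 3 and 1 was lower, beside 22.2% and 17% of all genes, and after median centring 6 and 0, beside 40% and 6.58%. MCL1, on which myeloma cells are known to depend, had a gap of 0.30, BCL2 one of 0.27 and BAG3 one of -0.11. Their mimetic differences were 0.11, 0.13 and -0.13, and none was called. Of 13 tested histone genes 4 were higher and 0 lower, and of 16 NF-kB targets 1 was higher and 3 lower.

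Other classes of short RNA differed in where they lay, beside 17% of all genes lower and 22.2% higher. Of 11 tested small nuclear RNA genes 5 were lower and 0 higher in mimetic 2, mimetic 3 and mock 3, of 4 Y RNA genes 2 and 0, and of 3 ribosomal RNA genes 3 and 0. Of 36 annotated microRNA genes, the most numerous of these classes, 2 (5.56%) were lower and 4 (11.1%) higher. No test was made of these classes.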
